A study of Mus musculus with 24 samples.

Results

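The transcripts described here are those of 8 enzymes of heme synthesis, *Alas1*, *Alas2*, *Alad*, *Uros*, *Urod*, *Cpox*, *Ppox* and *Fech*, and of *Hmox1*, which encodes inducible heme oxygenase. They were picked out by gene name, and that step used no measured value. All 9 genes were found on the array, with 11 probes, among 27962 names. Where a gene had several probes, the probe with the highest mean intensity was used for the main values. Gene expression was measured in colon and liver of 12 female C57BL/6 mice at 12 weeks of age, on 24 two-colour arrays. The dams of all mice were fed HF-low, a high-fat feed with little selenium and folate, from 7 days before mating through gestation and lactation. At weaning at about day 28 the offspring either stayed on this diet (HF-low-low, 6 mice) or were moved to a high-fat feed that was adequate in both nutrients (HF-low-suf, 6 mice). Both tissues came from the same 12 mice, which gave 4 groups of 6 arrays. All groups shared the maternal diet, the high-fat feed and a fast followed by re-feeding before tissues were taken, so neither a low-fat group nor a group with adequate levels throughout life was part of the comparison. Folate and selenium changed together, and the 2 cannot be told apart.

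Heme is an iron-porphyrin made in a chain of steps that begins and ends in the mitochondrion and passes through the cytosol in between. 5-Aminolevulinate synthase joins glycine and succinyl-CoA in the step that limits the rate. *Alas1* encodes the form of this enzyme found in most tissues, which in liver supplies heme for cytochromes P450, and *Alas2* encodes the form of developing red cells. The middle enzymes build and trim the porphyrin ring, *Fech* encodes the enzyme that inserts iron, and heme oxygenase opens the ring again, releasing iron, carbon monoxide and biliverdin. The study related folate to porphyrin production when it discussed higher myoglobin transcript and protein, and higher haemoglobin protein, with the adequate diet. It proposed greater availability of heme as a possible mechanism. The transcripts described here measure neither heme nor porphyrin, and proteins were not examined. The comparisons below ask how the transcripts of the pathway differed between the tissues and between the diets.

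*Alas1* was measured by 2 probes, each designed from a separate stretch of the transcript, and both are shown because they check one another. In build mm7 the main probe lay at chr9:105963584-105963643 and the second at chr9:105964920-105964979, both on the minus strand. In each probe 1 of the 3 reading frames held no stop codon. The exon was not annotated here. Both are printed 5′ to 3′ with no part marked.
*Alas1* main probe: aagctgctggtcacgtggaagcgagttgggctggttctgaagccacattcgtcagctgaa
*Alas1* second probe: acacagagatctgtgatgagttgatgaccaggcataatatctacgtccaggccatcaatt

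Promoter windows of RefSeq (build GRCm38.p6, 250 bases before to 50 after each start) were found for 7 of the 9 genes, in 10 windows. *Alas2* and *Cpox* are shown because they had the largest differences between liver and colon. The letters AGATAA or TGATAA, which GATA factors of red cell precursors can bind, were searched on both strands and are in capitals. The stretch of *Alas2* is chrX:150547167-150547416 and that of *Cpox* is chr16:58669958-58670207, each on the plus strand and ending just before the start.
*Alas2*: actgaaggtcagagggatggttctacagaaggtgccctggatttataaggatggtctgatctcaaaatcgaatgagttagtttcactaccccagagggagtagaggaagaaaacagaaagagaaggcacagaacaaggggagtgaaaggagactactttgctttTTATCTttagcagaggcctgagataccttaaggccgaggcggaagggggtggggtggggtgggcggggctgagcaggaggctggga
*Cpox*: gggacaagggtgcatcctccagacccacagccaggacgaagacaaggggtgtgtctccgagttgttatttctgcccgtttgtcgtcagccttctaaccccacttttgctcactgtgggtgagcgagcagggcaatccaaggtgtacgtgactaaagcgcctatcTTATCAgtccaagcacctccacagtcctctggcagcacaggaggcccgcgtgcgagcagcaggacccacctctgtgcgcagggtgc

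In both genes the match began 86 bases before the start. *Cpox* had another match, to AGATAA, just after its start, and 1 window of *Uros* held TGATAA. Of all 32851 promoter windows, 18.6% held either motif. For *Alas1* a palindrome of 10 letters that the factor NRF1 can bind was found in both of its overlapping windows, against 0.971% of all windows. Its letters are in capitals in the 30 bases of chr9:106247906-106247935, minus strand.
*Alas1*: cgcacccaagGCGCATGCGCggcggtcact
The letters CACGTG were found in windows of *Alad*, *Urod* and *Uros*, against 7.15% of all windows. A match of letters is a description of the window and not a bound site.

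On each array the sample was labelled with Cy3 and hybridised against one common reference in Cy5, described in the methods as equal shares of the intestine and liver RNA of the mice. Values are log2 ratios of sample to reference, so they compare a gene between samples and not one gene with another. Median Cy3 signals were 3.78 to 7.20 times the median background of the same array. All probes of the 9 genes were well above background on every array, except *Uros* (20 of 24 arrays) and *Ppox* (23 of 24), and none was saturated. Colon HF-low-suf replicate 5 and liver HF-low-suf replicate 4 stood apart by a bright Cy5 channel. In liver HF-low-suf replicate 4 as many as 8.75% of spots were marked as outliers, and its spot for *Uros* was left out. Without these 2 arrays the difference between the tissues was 2.47 for *Alas1*, 2.88 for *Alas2* and 1.44 for *Hmox1*, and *Ppox* still did not pass (0.26, adjusted P = 0.0780). The tissues matched their labels. All 9 hepatocyte markers on the array were higher in liver, with a median log2 difference of 5.46, and of 10 colon epithelium markers 9 were lower in liver, with *Aqp8* as the exception (3.03).

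Of the 9 genes, 8 were higher in liver than in colon at an adjusted P under 0.05, *Ppox* did not pass, and none was lower. Over all 41174 probes, 19.4% were higher in liver by this rule and 19% lower. Of the 17020 probes that cleared background on 12 or more arrays, 34.3% were higher. The median log2 difference of the 9 genes was 1.57, against 0.02 over all probes. For 7 of the 9 genes every liver was above every colon, which held for 5.97% of all probes and for 13.5% of the brighter ones. These are whole tissues, where fewer cells of a type and less RNA per cell cannot be told apart.

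*Alas1*, the rate-limiting form of most tissues, was 5.66-fold higher in liver (95% confidence interval 4.63 to 6.91, adjusted P = 2.45e-14). Its log2 ratio was between -1.49 and -0.27 in the 12 colons, with a median of -0.59. In the 12 livers it was between 0.63 and 2.56, with a median of 1.92. The groups did not overlap, and liver was higher in 12 of 12 mice. The second probe gave a log2 difference of 2.60 ± 0.14 (SE) against 2.50 ± 0.14 for the main one. The 2 probes followed one another closely across the 12 livers (r = 0.98) and the 12 colons (r = 0.94).

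*Alas2*, the form of red cell precursors, had a log2 difference of 2.84 ± 0.14 (SE), or 7.16-fold (interval 5.83 to 8.80, adjusted P = 3.14e-15). The colons lay between -2.81 and -1.92 with a median of -2.48, and the livers between -0.24 and 1.11 with a median of 0.35. Liver was again higher in 12 of 12 mice without overlap. Haemoglobin transcripts moved in the same direction: *Hba-a1* was higher in liver by 2.90 ± 0.20 and *Hbb-b1* by 3.50 ± 0.25 on the log2 scale. Both have near-identical copies that the probes may share. Over all probes 19.4% were higher in liver and 19% lower. Of the 14 red cell markers on the array, 5 were higher in liver and none lower, but only 3 of them cleared background on 12 or more arrays. The genes defining red cell precursors among them were dim: *Gata1* was well above background in 1 colon and 1 liver, and *Klf1* in 1 colon and 2 livers. The mean log2 ratio over this list was between -0.71 and -0.41 in colon and between -0.15 and 0.26 in liver. Its part in the *Alas2* difference was not tested.

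The enzymes between the first and last steps differed in size. *Cpox*, encoding coproporphyrinogen oxidase, was 7.14-fold higher in liver (log2 difference 2.84 ± 0.11, adjusted P = 3.79e-18), with colons between -1.91 and -1.17 and livers between 0.49 and 1.62. *Alad*, whose product joins 2 molecules of aminolevulinate, was 3.96-fold higher (1.99 ± 0.09, adjusted P = 1.40e-16). Its colons lay between -1.50 and -1.03 and its livers between 0.14 and 1.16. *Urod*, encoding uroporphyrinogen decarboxylase, was 2.35-fold higher (1.23 ± 0.08, adjusted P = 1.51e-12). *Uros*, encoding uroporphyrinogen synthase, was 2.20-fold higher (1.14 ± 0.10, adjusted P = 1.95e-10) with 1 liver left out. In each of these 4 genes every measured liver was above every colon.

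*Ppox*, encoding protoporphyrinogen oxidase, differed by 0.23 ± 0.11 on the log2 scale, a 1.17-fold difference (log2 interval 0.01 to 0.45, adjusted P = 0.103). Its colons lay between 0.13 and 0.56 and its livers between -0.40 and 0.86, so the tissues overlapped, and liver was higher in 10 of 12 mice. Liver HF-low-low replicate 3 gave the lowest value, on the only array where *Ppox* was not well above background. Without this mouse the difference was 0.31 (adjusted P = 0.00484), and with arrays centred on the median in place of loess it was -0.12 (adjusted P = 0.568).

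*Fech*, encoding ferrochelatase, was 2.97-fold higher in liver (1.57 ± 0.10, adjusted P = 3.95e-13), with colons between -0.51 and 0.37 and livers between 1.15 and 1.84. Its second probe gave 1.36 ± 0.11. Both probes separated the tissues in all 12 mice. Within a tissue they did not follow one another: the correlation was -0.58 across the 12 livers and -0.32 across the 12 colons, so variation of *Fech* within a tissue is uncertain.

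*Hmox1*, on the breakdown side, was 2.62-fold higher in liver (interval 2.04 to 3.36, log2 difference 1.39 ± 0.18, adjusted P = 2.02e-07). The colons lay between -1.34 and 0.01 with a median of -0.68, and the livers between -0.08 and 1.74 with a median of 0.51. The tissues overlapped slightly, although liver was higher within each of the 12 mice. Of the 9 genes *Hmox1* varied most among livers (SD 0.57, n = 12), and *Urod* varied least (SD 0.16, n = 12).

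**Figure D1:**
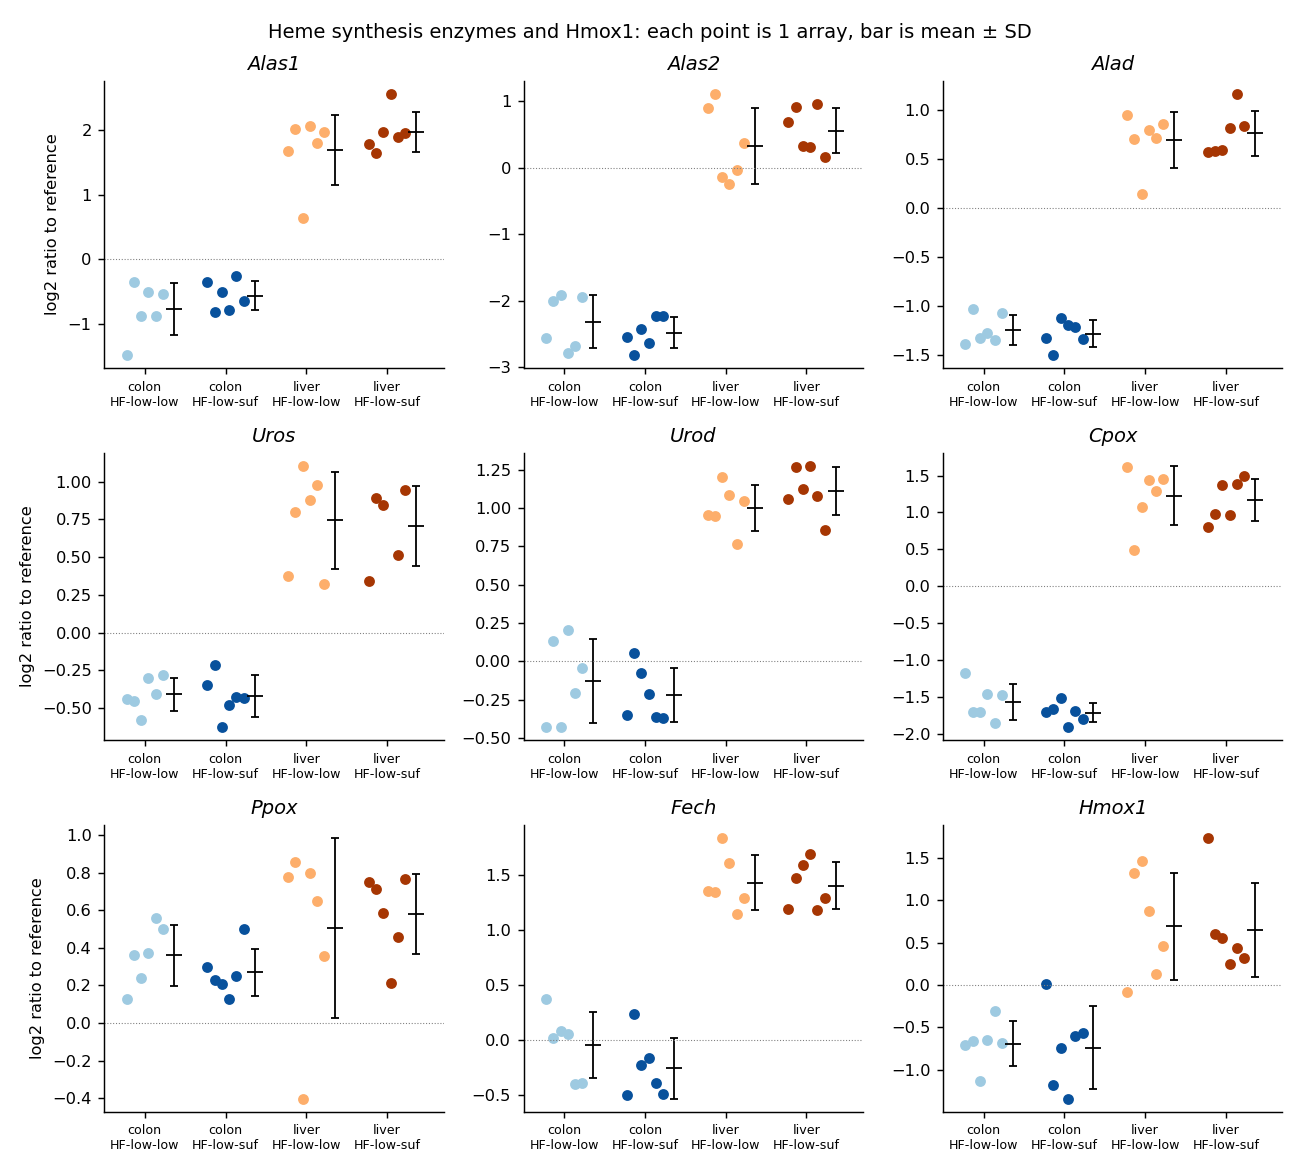
Log2 ratio of sample to reference for the 9 genes, with 1 point per array, 6 arrays per group (5 for Uros in liver HF-low-suf), and the mean ± SD beside each group. In all panels except Ppox and Hmox1 every liver lies above every colon, and the 2 diets overlap in each tissue.

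**Figure D2:**
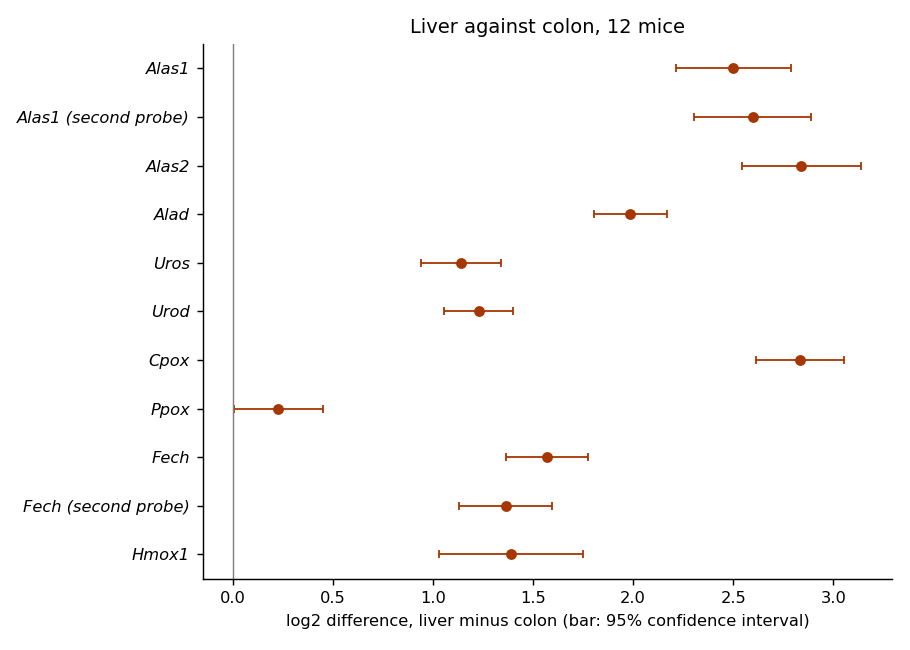
Log2 difference between liver and colon over 12 mice for the 11 probes, with 95% confidence intervals. Alas2 and Cpox lie farthest to the right, both at 2.84, and Ppox lies nearest to 0 at 0.23.

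Of 17 genes for glycine, iron and carriers on the array, 14 were higher in liver and none lower, with a median log2 difference of 0.61. With arrays centred on the median and no loess, 8 were called higher. *Slc25a28* (0.18), *Suclg1* (0.17) and *Abcb10* (0.04) did not pass. They included *Shmt2*, which makes glycine from serine in mitochondria with folate as the carrier (2.72 ± 0.12), its cytosolic counterpart *Shmt1* (2.12 ± 0.09), and *Gldc*, which breaks glycine down in the glycine cleavage system. *Gldc* was well above background in 12 of 12 livers and in only 1 of 12 colons, so the size of its difference is uncertain. *Slc25a38*, a mitochondrial glycine carrier, was higher by 0.60 ± 0.09 and *Slc25a37*, a mitochondrial iron carrier, by 0.42 ± 0.12.

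Of 15 genes for heme breakdown, binding and export, 11 were higher in liver and 3 lower. The constitutive heme oxygenase *Hmox2* was higher by 0.54 ± 0.07, *Blvrb*, a biliverdin reductase, by 1.84 ± 0.08, and *Hpx*, encoding the plasma heme binder hemopexin, by 7.77 ± 0.15. *Abcg2*, a porphyrin exporter, was lower (-0.39 ± 0.11), as was the ferritin heavy chain *Fth1* (-0.47 ± 0.09), while the light chain *Ftl1* was higher (1.26 ± 0.08). The largest of the 3 lower values was that of *Hebp2* (-1.80 ± 0.15). It was well above background in 12 of 12 colons and 0 of 12 livers, so the size of its difference is uncertain. The 9 genes listed as heme enzymes of liver, with *Por*, a reductase without heme that serves them, were higher in liver. They had been chosen as liver genes, so their direction is no independent evidence. Among them were *Cat* (3.16 ± 0.11), *Cyp3a11* (6.03 ± 0.09) and *Tdo2* (5.42 ± 0.15), the last well above background in 9 of 12 colons.

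The regulators went in both directions. Over all probes 19.4% were higher in liver and 19% lower, and of the brighter probes 34.3% were higher. Of 9 known regulators of *Alas1*, 4 were higher in liver and 1 lower. *Nr1i3*, the nuclear receptor CAR, was higher by 2.95 ± 0.20, while *Ppargc1a*, the fasting-induced coactivator PGC-1α, was lower by -1.08 ± 0.16. Of 12 regulators of *Hmox1* and genes controlled with it, 3 were higher and 4 lower. Neither count is read as a trait of the regulators, since the lists are small and many probes differed between the tissues. *Nfe2l2*, encoding NRF2, was lower in liver (-1.11 ± 0.12). Among the genes controlled with *Hmox1*, *Nqo1* was lower (-0.56 ± 0.13), whereas the glutathione synthesis genes *Gclc* (1.84 ± 0.17) and *Gclm* (1.07 ± 0.20) were higher. The repressor *Bach1* differed by -0.23 ± 0.23 and did not pass. With median centring the number called higher was 9 for the breakdown genes and 2 for the regulators of *Alas1*, and it was 8 for the 9 heme genes.

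**Figure D3:**
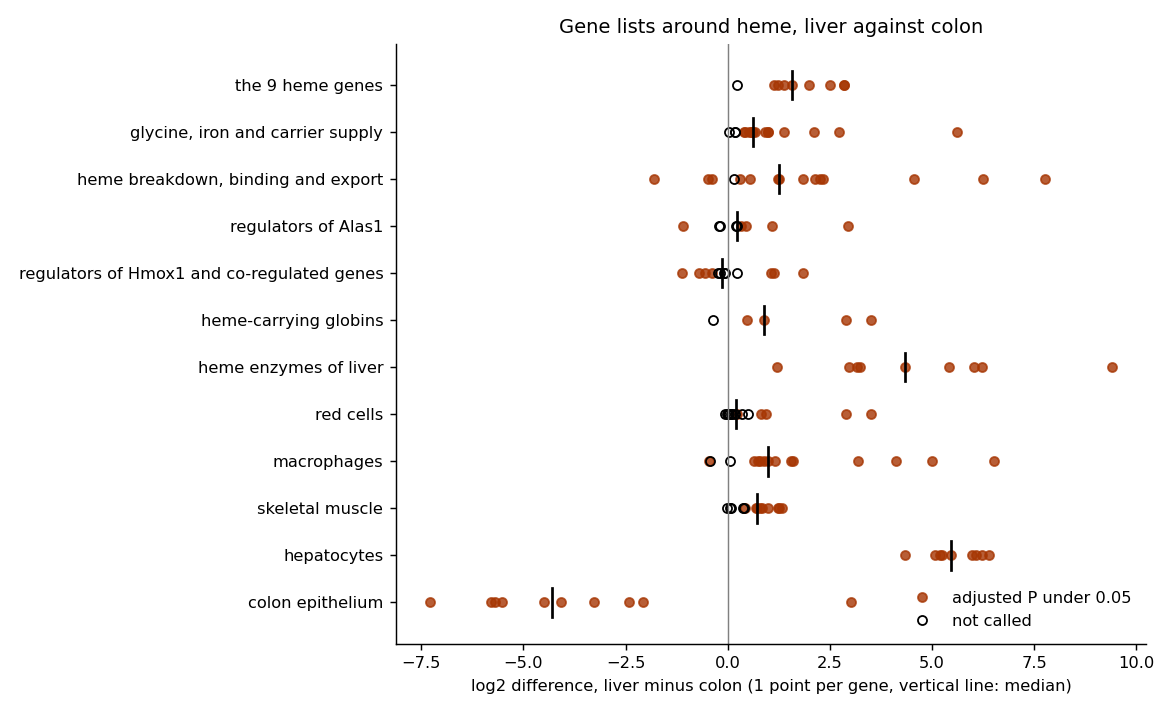
Log2 difference between liver and colon for each gene of the lists (1 point per gene, filled where the adjusted P was under 0.05, vertical line at the median). The supply genes have a median of 0.61 and the list of heme enzymes of liver, Por included, one of 4.35, whereas the regulators of Hmox1 lie on both sides of 0.

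In the livers *Hmox1* varied with macrophage transcripts. Of 15 macrophage markers on the array, 12 were higher in liver and 1 lower, and with median centring 6 were higher. The Kupffer cell genes *Cd5l*, *Clec4f* and *Marco* were among the 12. They were well above background in 12 of 12 livers and in only 3, 1 and 5 of 12 colons, so the sizes of their differences are uncertain. The mean log2 ratio over this list was between -0.95 and -0.04 in colon and between 0.28 and 2.14 in liver. Across the 12 livers *Hmox1* and the list mean had r = 0.84 (permutation P = 0.000500, adjusted P = 0.00300 over the 6 relations tested) and Spearman's rho = 0.86 (permutation P = 0.000630, adjusted P = 0.00378). With the 2 livers of most extreme list mean left out, r was 0.91. Within the scan days r was 0.90 and 0.88, with 6 livers each, and within the diets it was 0.87 in HF-low-low and 0.94 in HF-low-suf. The 3 genes with the pattern most like *Hmox1* across the livers, out of 7667 probes well above background in all of them, were *Pirb* (r = 0.90), *Tyrobp* (r = 0.87) and *Ptpra* (r = 0.87). In colon 7 of the 15 markers were well above background on 6 or fewer of the 12 arrays, so the list mean there holds values near background. Across the 12 colons *Hmox1* and the list had r = 0.06 (permutation P = 0.845, adjusted P = 0.942) and rho = -0.04 (permutation P = 0.904, adjusted P = 0.904). In colon the sign turned between the scan days, with r = 0.62 on the one and -0.50 on the other. Whether the relation differed between the tissues was not tested.

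**Figure D4:**
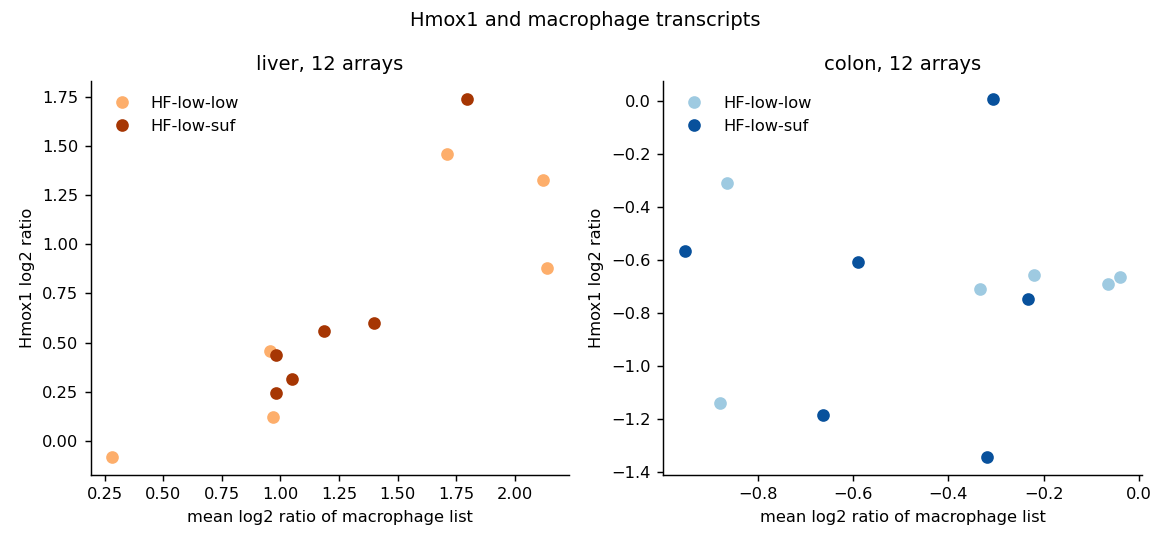
Hmox1 log2 ratio against the mean log2 ratio of 15 macrophage transcripts, 1 point per array, livers on the left and colons on the right. The livers form a rising band with r = 0.84, and the colons do not, with r = 0.06, where 7 of the 15 transcripts were near background on 6 or more arrays.

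The other relations tested did not pass. *Alas2* and the red cell list had r = 0.50 in liver (rho = 0.45, permutation P = 0.0983 and 0.138, adjusted P = 0.295 and 0.415), which was 0.18 without the 2 farthest livers, and r = 0.33 in colon (rho = 0.21, permutation P = 0.308 and 0.513, adjusted P = 0.615 and 0.770), or 0.52 without the 2 farthest colons. Within the scan days the values for *Alas2* were 0.53 and 0.85 in liver, and 0.31 and 0.41 in colon. *Alas1* and myoglobin (*Mb*) had r = -0.02 across livers (rho = -0.12, permutation P = 0.908 and 0.715, adjusted P = 0.942 and 0.858). *Alas1* and *Hbb-b1* also had r = -0.02 (rho = -0.34, permutation P = 0.942 and 0.276, adjusted P = 0.942 and 0.552). Without the 2 farthest livers these 2 values were 0.45 and 0.30. Within the scan days they were 0.12 and -0.03 for *Mb*, and -0.03 and 0.03 for *Hbb-b1*. Within HF-low-low and HF-low-suf, with 6 mice each, r was 0.64 and -0.02 for *Alas2* in liver, 0.17 and 0.63 for *Alas2* in colon, 0.54 and -0.46 for *Alas1* with *Mb*, and -0.19 and -0.06 for *Alas1* with *Hbb-b1*. For *Hmox1* in colon it was 0.10 and 0.02. Among the 3 genes most like *Alas1* across the livers were *Aldh4a1* (r = 0.90) and *Acy1* (r = 0.89), and those most like *Alas2* were *Lamtor1* (r = 0.90), *Galk1* (r = 0.89) and *Adora2a* (r = 0.89).

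The diet comparison asked whether adequate selenium and folate after weaning changed these transcripts. None of the 9 genes passed the study's threshold of P under 0.01 with a fold change above 1.5 in either tissue, and none reached an unadjusted P under 0.05 in limma. By that threshold 0.168% of all probes were called in colon and 0.117% in liver. With the slide as a block, the number of probes called in liver went from 48 to 131, and none of the 9 genes was among them. After adjustment 0% were called in either tissue, while 2.98% of probes in colon and 2.13% in liver had an unadjusted P under 0.05. Differences are given as HF-low-suf minus HF-low-low, with the direction taken from the dyes. For a check of the sign, *Nov* differed by 0.81 in colon and *Slc2a4* by 1.26 in liver. For both genes this direction is opposite to the sign in the study's tables, while the size is close to the one given there. The study's methods, which write *Slc22a4* where its results have *Slc2a4*, call this mRNA both increased and down-regulated. *Mb* in liver has the same sign as in the study's text, by a difference that rests mostly on a single liver. Other genes of those tables were not checked, and the reason for the opposite signs is not known.

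In liver *Alas1* differed by 0.27 on the log2 scale (interval -0.23 to 0.78, limma P = 0.263, adjusted P = 0.999986, exact permutation P = 0.405). The 6 HF-low-low livers lay between 0.63 and 2.07 with a median of 1.88, and the 6 HF-low-suf livers between 1.65 and 2.56 with a median of 1.92. The diets overlapped. The difference rested on a low array in one group and a high array in the other: without liver HF-low-low replicate 3 it was 0.06, and without liver HF-low-suf replicate 4 it was 0.16. Within the 2 scan days it was 0.36 and 0.19. In colon *Alas1* differed by 0.21 (interval -0.18 to 0.60, exact permutation P = 0.314), with HF-low-low between -1.49 and -0.36 and HF-low-suf between -0.82 and -0.27. Without colon HF-low-low replicate 1, the lowest of the 12 colons, this difference was 0.07. Within the 2 scan days it was 0.35 and 0.07.

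*Alas2* differed by 0.23 in liver (interval -0.30 to 0.76, exact permutation P = 0.398) and by -0.16 in colon (interval -0.55 to 0.22, exact permutation P = 0.383). The HF-low-low livers lay between -0.24 and 1.11 with a median of 0.17, and the HF-low-suf livers between 0.17 and 0.97 with a median of 0.50. Within the scan days the *Alas2* difference was 0.02 and 0.45 in liver, and -0.43 and 0.10 in colon, where its sign turned. With 1 array left out it ranged from 0.12 (liver HF-low-low replicate 4) to 0.39 (liver HF-low-low replicate 2) in liver, and from -0.26 (colon HF-low-low replicate 4) to -0.09 (colon HF-low-low replicate 3) in colon. *Hbb-b1* differed by 0.56 ± 0.38 (SE) in liver and by -0.46 ± 0.32 in colon, and neither passed. The part of blood in these values was not tested.

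For *Alad*, *Uros*, *Urod*, *Cpox*, *Ppox* and *Fech* the liver differences lay between -0.06 and 0.11, and each 95% interval stayed within 1.5-fold in both directions. In colon the interval stayed within 1.5-fold for 8 of the 9 genes, the exception being *Alas1*. The main probe of *Fech* had the lowest value in colon, -0.21 (interval -0.57 to 0.15, exact permutation P = 0.225), but its second probe gave 0.11. *Hmox1* differed by -0.04 in liver (interval -0.69 to 0.61, exact permutation P = 0.898) and by -0.05 in colon (interval -0.49 to 0.40, exact permutation P = 0.857). In liver the HF-low-low values of *Hmox1* spread from -0.08 to 1.46 and the HF-low-suf values from 0.25 to 1.74. Within the scan days the *Hmox1* difference was 0.06 and -0.15 in liver, and 0.20 and -0.29 in colon. With 1 array left out it ranged from -0.26 (liver HF-low-suf replicate 1) to 0.11 (liver HF-low-low replicate 3) in liver, and from -0.20 (colon HF-low-suf replicate 1) to 0.08 (colon HF-low-suf replicate 4) in colon. Over the 9 genes the exact permutation P ranged from 0.214 to 0.890 in colon and from 0.242 to 0.898 in liver, where 924 assignments allow 0.00216 as the smallest, except for *Uros* in liver with 462 assignments.

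**Figure D5:**
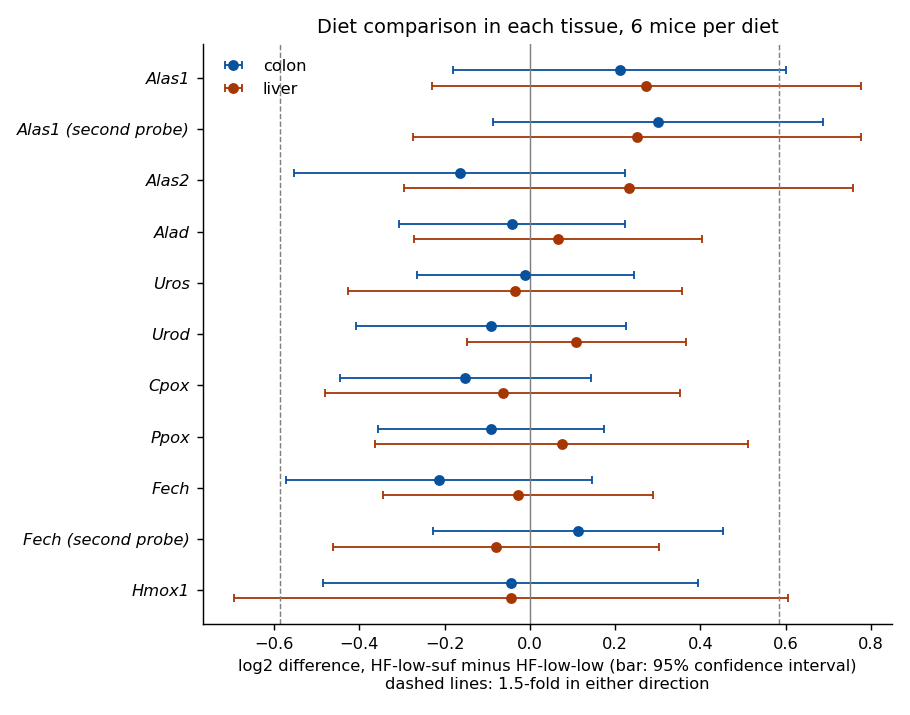
Log2 difference between HF-low-suf and HF-low-low for the 11 probes in colon and liver, 6 mice per diet, with 95% confidence intervals and dashed lines at 1.5-fold. Every interval includes 0. Those of Alas1, Alas2 and Hmox1 in liver reach past 1.5-fold, and so do those of both Alas1 probes in colon.

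None of the genes in the lists passed the threshold in either tissue. Among the 17 supply genes the median difference was 0.03 in colon and 0.04 in liver, with values between -0.25 and 0.23. The folate-dependent *Shmt1* differed by 0.11 in colon and -0.09 in liver, and *Shmt2* by -0.07 and 0.04. Among the 15 breakdown genes the medians were -0.06 and -0.01. *Mb* differed by 0.65 ± 0.48 (SE) in liver and did not pass, and without liver HF-low-suf replicate 2, a setting chosen after seeing the data, it differed by 0.12. There the HF-low-suf values ran from -2.89 to 0.73 with a median of -2.45 and the HF-low-low values from -2.94 to -2.32 with a median of -2.49. The highest *Mb* value was that of liver HF-low-suf replicate 2, which also had the highest mean over 14 skeletal muscle transcripts (-2.42, against -5.10 to -3.92 in the other livers), 3 of which were saturated in a channel on some livers. The same liver had *Alas1* at 1.65, the lowest of its group. The part of muscle transcripts in these values was not tested.

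The diet differences were then compared between the tissues. For none of the 9 genes did the difference in liver depart from that in colon at an adjusted P under 0.05 or at an unadjusted P under 0.05 in limma, and over all probes 0% passed adjustment and 6.43% had an unadjusted P under 0.05. The largest departure was that of *Alas2*, 0.40 (interval -0.20 to 0.99, adjusted P = 0.884). It was 0.06 for *Alas1* (interval -0.51 to 0.64) and 0.00 for *Hmox1* (interval -0.72 to 0.72). In the lists 4 genes had unadjusted P values under 0.05, and none passed adjustment: *Hbb-b1* (1.01 ± 0.49), *Gclm* (-0.81 ± 0.39), the cystine transporter *Slc7a11* (-0.55 ± 0.25), which was not well above background on any array, and *Tat* of the hepatocyte markers (-0.39 ± 0.18).

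Within a tissue the 9 genes did not all vary in the same direction. Of their 36 pairs, 17 had a correlation above 0 across the 12 livers and 22 across the 12 colons, with medians of -0.09 and 0.09. The arrays share a reference and a normalization. Liver HF-low-low replicate 3 is an example. Of 12 livers it had the lowest *Alas1* (0.63), *Alad* (0.14) and *Ppox* (-0.40, not well above background), but the highest *Uros* of 11 (1.11) and the second highest *Hmox1* (1.46). For *Fech* it had the highest value of the 12 by the main probe (1.84) and the lowest by the second (-0.04), so no direction is read from that gene. Its mean over the hepatocyte markers was also the lowest of the 12 livers (1.20, against 1.46 to 1.94 in the others), and its part in these values was not tested.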

How the data were processed

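Gene expression was measured on 24 two-colour Agilent arrays, with the sample in Cy3 and a common reference in Cy5 and no dye swap. The authors deposited the scanner intensities of each array, read with Feature Extraction 9.5.3.1 and, per the file headers, annotated on build mm7. From these, mean signals and median backgrounds were background-corrected (normexp, offset of 50) and a loess curve was fitted array by array, with 1639 control spots of 45018 given no weight and then left out together with outlier spots, in R 4.3.3 with limma 3.58.1 and statmod 1.5.0. Repeated spots of a probe were averaged. Loess assumes that most probes do not differ between sample and reference, and colon and liver differ in many genes.

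Liver and colon, and the diet difference between them, were tested in limma on the 24 arrays together, treating the mouse as a random effect (correlation 0.158) at a Benjamini-Hochberg adjusted P under 0.05. The diets were tested in each tissue without a block at the threshold in the study's methods, P under 0.01 and a fold change above 1.5, with a two-sided exact permutation test for each gene. Permutation tests of relations used 100000 resamples. Mice are the replicates, 6 per diet, and this number limits the precision. In data simulated for the diet tests, 88% of probes changed by 1 on the log2 scale were recovered in colon and 88% in liver. Recovery was counted at the study's unadjusted threshold. The simulated noise was independent and normal, with a single SD per probe pooled over the 4 groups, so it was not specific to a tissue. Changes as small as the diet differences of the 9 heme genes were not simulated. The labels give the mouse number, which pairs the tissues. Deviations of the same mouse in colon and liver correlated between -0.11 and 0.37. Alternatives were the background correction, normalization, filter on dim probes, probe rule, blocks, scan day and leaving out each mouse. The genes named are the 9 heme genes, genes of pathway and cell type lists and the 3 nearest patterns in liver, some of which are not reported here. The genes and lists were chosen with earlier results of these data known. Gene names are those of the array, updated through RefSeq.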

Additional observations from a re-analysis of the deposited data

Results flagged for a closer look

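In 44 groups, 43 of 6 arrays and 1 of 5 (*Uros* in liver HF-low-suf), the highest and lowest values were checked for a gap to the others that was large against the range of the group. Such gaps were found 5 times, where chance at about 1 in 20 would give 2.2. *Alas1* was 0.63 in liver HF-low-low replicate 3, against 1.67 for the next lowest of its group. *Alad* was 0.14 in the same liver. *Alas1* was 2.56 in liver HF-low-suf replicate 4, the array with a bright Cy5 channel, against 1.97 for the next highest. *Hmox1* was 1.74 in liver HF-low-suf replicate 1, which also had the highest macrophage list mean of its group (1.80). *Mb* was 0.73 in liver HF-low-suf replicate 2, while all 24 arrays spanned -3.46 to 0.73.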

How the results depend on the processing

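Between the tissues, 8 of the 9 heme genes were higher in liver under 21 of 25 alternatives and 9 under the other 4, in which *Ppox* passed (no background correction, plain subtraction, processed signals, and without HF-low-low replicate 3). With median centring *Ppox* was -0.12 (adjusted P = 0.568). No heme gene was called by diet under any of the 26 alternatives in colon or in liver, nor for the difference between tissues under 25. The tissue and diet analyses within a scan day were chosen after seeing the data, while those of the relations were planned. In colon, diet differences that were not called turned positive with median centring for *Alad* (0.11), *Cpox* (0.0103), *Ppox* (0.0410) and *Urod* (0.0643), within scan day 1 for *Hmox1* (0.20) and *Urod* (0.12), within scan day 2 for *Alas2* (0.10), and for *Uros* with Aquantile (0.13) and processed signals (0.12). Sign turns by less than 1 SE are not listed singly: 13 of 234 values in colon, 25 of 234 in liver (*Alad*, *Uros*, *Cpox*, *Ppox*, *Fech* and *Hmox1*, such as *Ppox* at 0.27 and -0.12 within the scan days) and 18 of 225 for the difference between tissues. That difference for *Urod* was -0.00347769 within scan day 1. The relation of *Alas2* to red cell transcripts in liver was 0.85 within scan day 2, and that of *Hmox1* to macrophage transcripts in colon was 0.62 and -0.50 within the days. Those of *Alas1* in liver to *Mb* and *Hbb-b1* were 0.45 and 0.30 without the 2 farthest livers. The cause was not tested.

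Over all probes the diet calls ranged from 3 with the filter on dim probes to 278 within scan day 1 in colon (main 69), and from 2 with median centring to 144 with all arrays in one fit in liver (main 48). Leaving out 1 mouse gave 23 to 257 in colon and 9 to 304 in liver, the last without liver HF-low-low replicate 3. With processed signals the median of all probes between the tissues was -0.19. With median centring, macrophage markers higher in liver went from 12 to 6 and globins from 4 to 2.

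Without the replicate block *Ppox* had an adjusted P of 0.148 between the tissues, and with the mouse as a fixed term 0.118. With the slide as a replicate block 92 probes were called in colon and 131 in liver, and no call of a heme gene changed. Same-numbered samples of the 2 diets share only a slide: their deviations correlated between -0.35 and 0.45 in colon and between -0.57 and 0.65 in liver, and 1 of 6 and 2 of 6 correlated best with their own number.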

Other observations

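Of 14 skeletal muscle transcripts, 13 were below the common reference on each of the 24 arrays. The mean over the 14 lay between -5.43 and -2.42, although the methods describe the reference as pooled intestine and liver RNA of the mice. For 3 of the 14, *Myh4*, *Tnnc2* and *Tnni2*, a channel was saturated on 11, 9 and 2 of the 12 livers, so their ratios are uncertain. What the reference held was not tested.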
